A study of Homo sapiens with 16 samples.

Results

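The respiratory chain subunits described here are 53 nuclear genes, 35 of complex I, 4 of complex II, 9 of complex III and 5 of complex IV. Members were taken as probe sets annotated to 1 of these genes and to no other gene. This gave 98 probe sets for 47 of the 53 genes, out of 54675 probe sets on the array. NDUFC2, NDUFS5, NDUFS8, SDHB, UQCRFS1 and UQCRH had no such probe set. A probe set was called dim when its median over all arrays lay under the reference used for its ratio. The 90 member probe sets that were not dim cover all 47 genes, 24 of them with more than 1 probe set, and stand among 34727 probe sets of 14113 genes that passed the same filter.

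The complexes of the respiratory chain sit in the inner mitochondrial membrane and pass electrons from NADH and succinate to oxygen. Complex I oxidises NADH, complex II oxidises succinate as part of the citric acid cycle, and both reduce ubiquinone. Complex III moves electrons from ubiquinol to cytochrome c, and complex IV hands them to oxygen. Complexes I, III and IV also pump the protons that drive ATP synthase, and each of them holds subunits encoded by mitochondrial DNA, which were not analysed here.

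The series measured 8 untreated, established human lung cancer lines, H358, H460, A427, H1703, H661, H23, A549 and H1437, on the Affymetrix U133 Plus 2.0 array. Each line gave 1 array after growth on tissue culture plastic (2D) and 1 array after growth on a thin Matrigel layer under medium with 2% Matrigel (3D), at a like density and in like medium. Matrigel is a basement membrane extract. With 16 arrays in all, the lines are the replicates and no difference within a single line has a replicate check. Values are log2 ratios to each probe set's own reference, so a level of 0 is the usual level of that probe set, and no gene's level can be set against another's. Unless stated, a difference is 3D minus 2D on the log2 scale and its error is the SD over 8 lines.

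3 properties of the arrays bear on all results. The 3 probe sets of 18S ribosomal RNA were lower in 3D in 8 of 8 lines, by a mean of -1.15, with a range from -3.45 in H23 to -0.08 in H1437. Their part in the results below was not tested, and a fit that holds their level as a covariate cannot fully separate it from culture. Among markers, the median level of 6 epithelial genes ran from 5.38 in H358 to -4.98 in H1703, and H661 stood at -3.76, so epithelial markers were low in these last lines. Of the other marker lists, 6 of 6 fibroblast genes, 4 of 5 leukocyte genes and 1 of 4 endothelial genes had a probe set that was not dim. Not dim means only that the median did not lie under the reference, which does not show that a gene is expressed. Among the fibroblast genes, COL1A2 stood at 10.82 in H661 on 202403_s_at. LUM stood at 7.37 in H358 and 7.31 in H460 on 201744_s_at. Of the 4 lists, 0 genes were called in either direction.

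Respiratory chain subunits leaned lower in 3D by small amounts, and few passed the test. Over the 47 genes the median of the mean difference was -0.10, and 40 of 47 (85.1%) lay under 0, against a median of -0.01 and 51.4% under 0 over all 14113 genes. Complex III stood lowest with a median of -0.20, then complex I with -0.11, while complex II with -0.01 and complex IV with -0.01 lay at the value of all genes. All 7 complex III genes and 26 of 32 complex I genes had a mean under 0. So did 3 of 3 genes of complex II and 4 of 5 of complex IV, where no mean lay below that of SDHA at -0.12. The UQCRC2 mean of -0.20 was itself the complex III median. It lay under 0 through 241755_at (-0.83) alone, with the gene's other probe sets above 0. UQCRB, at -0.02, had probe sets on both sides of 0. The complex I median was -0.03 when probe sets of the _s_at and _x_at kinds, whose probes can match several transcripts, were left out. The complex IV median changed sign to 0.01 with quantile normalisation and without H358, and that of complex II to 0.01 without A549, so neither has a settled direction. In bulk RNA, fewer cells that express a gene and less RNA per cell cannot be told apart.

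**Figure D1:**
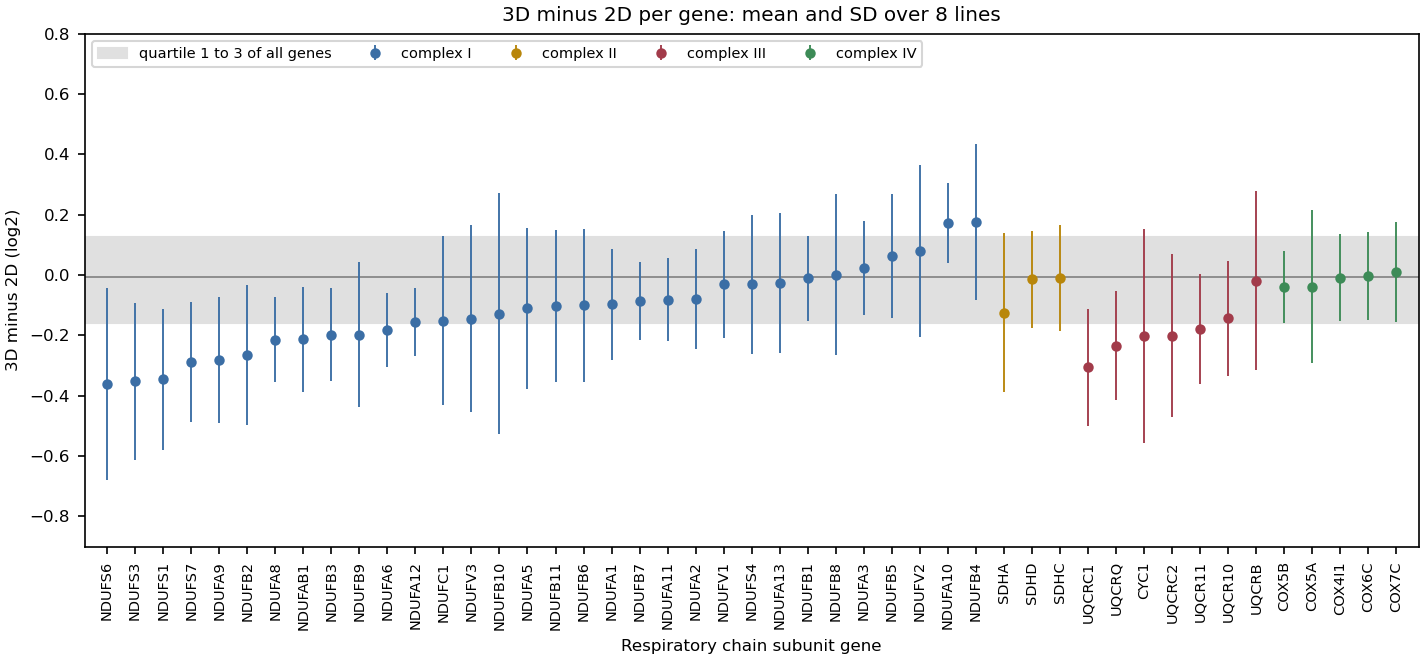
Mean 3D minus 2D (log2) of each of the 47 genes, with the SD over 8 lines as bars, grouped and coloured by complex; the grey band spans quartiles 1 to 3 of all genes (-0.16 to 0.13) and the grey line is their median. Complex I runs from NDUFS6 at -0.36 to NDUFB4 at 0.18, the complex III genes all lie under 0, and the complex IV genes lie close to 0.

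In limma's fit with the line as a block, adjusted by Benjamini-Hochberg over all 34727 probe sets, 3 of 90 member probe sets (3.33%) were called lower in 3D, against 4.44% of all probe sets. No member probe set was called higher, against 2.66% of all. By gene, 3 of 47 members had a probe set called lower, where 7.79% of all genes did, and 0 of 47 had one called higher, where 4.56% of all genes did. These shares lie near the background. At an unadjusted p under 0.05, 21 member probe sets were lower and 3 higher, where 15.2% and 10.9% of all probe sets were. The 3 called genes were NDUFS1 and NDUFA5 of complex I and UQCRC2 of complex III, and none of them was called on all of its probe sets. With the 18S level of each array as a covariate, limma called 0 members, and 0 probe sets lower and 2 higher among all 34727. Since 18S was lower in 3D in 8 of 8 lines, that fit cannot fully separate culture from the 18S level. In that fit the probe sets called here had -0.49 for NDUFS1, -0.54 for UQCRC2 and -0.40 for NDUFA5, with adjusted p of 0.450 for the first and higher for the others.

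NDUFS1 is the largest iron-sulfur subunit of complex I and belongs to the arm that takes electrons from NADH. Its probe set 235321_at had a lowest, median and highest level of -0.29, 0.53 and 1.38 in 2D and of -1.26, -0.24 and 0.45 in 3D. The ranges of the cultures overlapped, with H661 highest in both, yet each of the 8 lines was lower in 3D. The probe set fell by 0.85 ± 0.48 (SD, n = 8 lines; log2), 1.80-fold, with an adjusted p of 0.0189 in limma. The drop was largest in H460 (-1.47), H23 (-1.33) and H358 (-1.20) and smallest in H1703 (-0.21). The other 4 probe sets of NDUFS1 had means of -0.42, -0.24, -0.14 and -0.08, all under 0 and none called. One of them, 236356_at, was lower in 6 lines but higher by 0.79 in H23 and by 0.76 in H1703. Averaged over its probe sets, NDUFS1 had a mean of -0.34 and an adjusted p of 0.0520. Without H358, the adjusted p of 235321_at was 0.0518.

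UQCRC2 is a core protein of complex III that faces the mitochondrial matrix. Its probe set 241755_at had a lowest, median and highest level of -0.47, 0.32 and 0.92 in 2D and of -1.65, -0.40 and 0.16 in 3D. Every line was lower in 3D, by -1.71 in A549 and -1.68 in H23 but by only -0.22 in H460. This probe set fell by 0.83 ± 0.58, 1.78-fold (limma, adjusted p = 0.0280). Its remaining probe sets showed no such drop: 212600_s_at had a mean of 0.07 and was higher in 6 lines, and 200883_at had a mean of 0.15 and was higher in 7 lines. These 2 were lower in A549, by -0.32 on each. The call was lost without A549 (adjusted p = 0.0504), without H23 (0.0606) and without H358 (0.0707).

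NDUFA5 is an accessory subunit of the matrix arm of complex I. Its probe set 215850_s_at had a lowest, median and highest level of -0.08, 0.66 and 0.99 in 2D and of -0.63, -0.10 and 0.66 in 3D. It was lower in 7 of 8 lines, most in H661 (-0.96), and stood at 0.01 in H1703. It fell by 0.50 ± 0.36, 1.41-fold (limma, adjusted p = 0.0438). The second probe set, 201304_at, went the opposite way with 0.28 ± 0.34, was higher in 7 of 8 lines and most in H1703 (0.96), and was not called (adjusted p = 0.161). The gene's mean over both was -0.11. The call on 215850_s_at was kept only without H1437 among the fits that left out 1 line, and the highest adjusted p among those fits was 0.103, without H358.

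**Figure D2:**
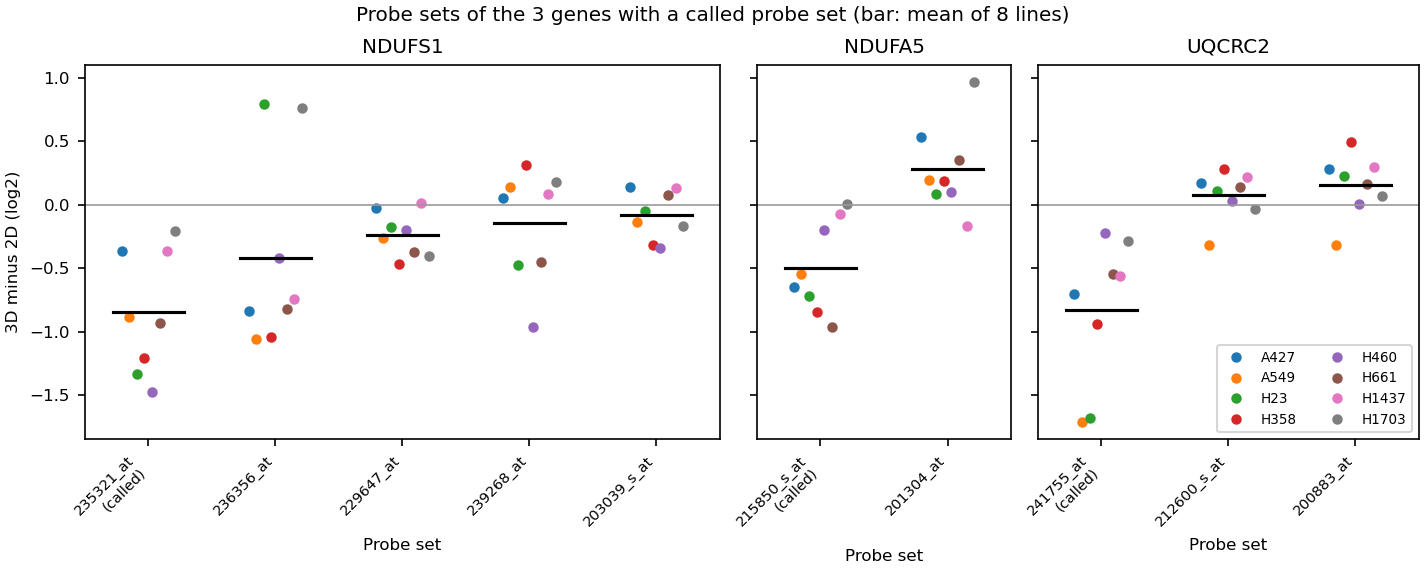
3D minus 2D (log2) of each probe set of NDUFS1, NDUFA5 and UQCRC2 in the 8 lines (points, coloured by line) with the mean over lines (black bar). The called probe sets have means of -0.85, -0.50 and -0.83, and the other probe sets of the same genes lie nearer to 0 or above it.

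These were also the only members whose probe sets parted by more than 0.5 in mean difference, with gaps of 0.76 for NDUFS1, 0.78 for NDUFA5 and 0.98 for UQCRC2. Among members with several probe sets, 3 of 24 (12.5%) parted by that much, against 21.7% of 7301 such genes in all, and the median gap was 0.18 against 0.26. Probe sets lay on both sides of 0 for 16 of the 24 members (66.7%) and for 47.4% of all such genes. The other 8 members had all probe sets under 0, and 0 members had all of them above 0. Probe sets of a gene lie at different places of its transcripts, mostly near the 3′ end, and which transcript each one reads was not tested.

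Complex I has a core that carries out the reaction and many accessory subunits around it. Of the 5 core subunits measured, NDUFS1, NDUFS3, NDUFS7, NDUFV1 and NDUFV2, the median difference was -0.29. It was -0.10 for the 11 NDUFA and -0.10 for the 11 NDUFB accessory genes. The accessory genes outside these groups, NDUFS6, NDUFAB1, NDUFC1, NDUFV3 and NDUFS4, had -0.36, -0.21, -0.15, -0.14 and -0.03. NDUFS3, which lies in the part that binds ubiquinone, had a lowest, median and highest level of -0.60, 0.18 and 0.96 in 2D and of -0.96, -0.06 and 0.27 in 3D. It was lower in 7 of 8 lines, with a mean of -0.35 ± 0.26 and an adjusted p of 0.0559. NDUFS7, whose iron-sulfur cluster hands electrons to ubiquinone, was also lower in 7 lines, with a mean of -0.29 ± 0.20 and an adjusted p of 0.0632. NDUFV1, the subunit that binds NADH and flavin, had a gene mean of -0.03, from -0.17 on 208714_at and 0.11 on 227795_at. Its partner NDUFV2 had 0.08 ± 0.28, higher in 5 lines.

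The lowest accessory gene was NDUFS6, a zinc-binding subunit, with a mean of -0.36 ± 0.32 and an adjusted p of 0.0732. H358 at -0.96, H23 at -0.59 and H1703 at -0.49 were lowest on NDUFS6, and H1437 stood at 0.02. NDUFA9, which lies where the matrix arm meets the membrane arm, had -0.28 ± 0.21 (adjusted p = 0.0721). The probe set of NDUFB2 nearest to the threshold, 218200_s_at, was lower in 8 of 8 lines with -0.30 ± 0.19 (adjusted p = 0.0526). NDUFB2 belongs to the membrane arm, and its 3 probe sets had means of -0.30, -0.27 and -0.23. The last, 240391_at, was lower in 4 lines and higher in 4, with -0.96 in A549 and -0.75 in H23. In A549 the others had -0.10 and -0.06. At the upper end stood NDUFB4 with a gene mean of 0.18 ± 0.26 and NDUFA10 with 0.17 ± 0.13, both of the membrane arm. NDUFA10 was higher in 7 of 8 lines, its probe set 227206_at by 0.43 ± 0.35 (adjusted p = 0.0559), while its probe set 217860_at had a mean of -0.05. For NDUFB4 the mean rested on 228940_at with 0.42, since 218226_s_at had -0.07.

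In complex III, UQCRC1, also a core protein, was the lowest gene. Its lowest, median and highest level were -0.09, 0.09 and 0.75 in 2D and -0.36, -0.18 and 0.38 in 3D. The cultures overlapped, and 7 of 8 lines were lower in 3D, all but H1437. The mean difference of UQCRC1 was -0.31 ± 0.19 with an adjusted p of 0.0542. UQCRQ, a small subunit, was lower in 8 of 8 lines, from -0.02 in H1437 to -0.58 in H661, with a mean of -0.23 ± 0.18 (adjusted p = 0.102). CYC1, the cytochrome c1 that passes electrons on to cytochrome c, ranged widely, from -0.60 in H358 to 0.39 in H1437, around a mean of -0.20. UQCR11 had -0.18 and UQCR10 had -0.14. UQCRB, which lies next to the ubiquinone site, had -0.02. Its gene mean split the lines, with -0.49 in H358 and -0.46 in H1437 but between 0.13 and 0.24 in A427, A549, H23 and H1703. All UQCRB probe sets were under 0 in H358. In H1437, 244293_at had -1.46 and the others ran from -0.36 to 0.03. In A549 the probe sets ran from -0.21 on 209065_at to 0.79 on 244293_at.

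Complex II and complex IV held no called probe set, at either an adjusted or an unadjusted p under 0.05. SDHA, the flavoprotein that oxidises succinate, had a mean of -0.12 ± 0.26, and the membrane anchors SDHC and SDHD had -0.01 ± 0.18 and -0.01 ± 0.16. The 7 probe sets of SDHC spanned -0.25 to 0.12. In complex IV the means of COX5B, COX5A, COX4I1, COX6C and COX7C ran from -0.04 to 0.01. COX5A was the most variable of them, with 0.33 in A427 and -0.54 in H358.

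The lines did not contribute alike. In A549, 42 of 47 genes were lower in 3D (89.4%, against 52.1% of all genes), in H358 41 (87.2% against 47.3%) and in H460 36 (76.6% against 50.5%). By contrast, 27 of 47 (57.4%) were lower in H661, where 60.1% of all genes were, and in H23 and H1437 24 of 47 were, with A427 at 28 and H1703 at 30. The median over the 47 genes was -0.31 in H358, -0.22 in A549 and -0.14 in H460, and between -0.06 and -0.00 in the other lines. Complex III medians were under 0 in 8 of 8 lines, from -0.35 in H460 to -0.01 in H1437. Complex I medians were under 0 in 7 lines, from -0.33 in H358 to 0.01 in H23. Complex IV had a median of -0.16 in H358 and of 0.19 in H661, where 0 of 5 gene means lay under 0. In H661, COX4I1 had 0.91 on 213758_at but -0.14 on 200086_s_at and -0.21 on 202698_x_at. COX5A had 0.42 on 229426_at and -0.36 on 203663_s_at, and COX5B lay above 0 on 213736_at only. COX6C, with 1 probe set, had 0.29, and COX7C was above 0 on all of its probe sets.

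**Figure D3:**
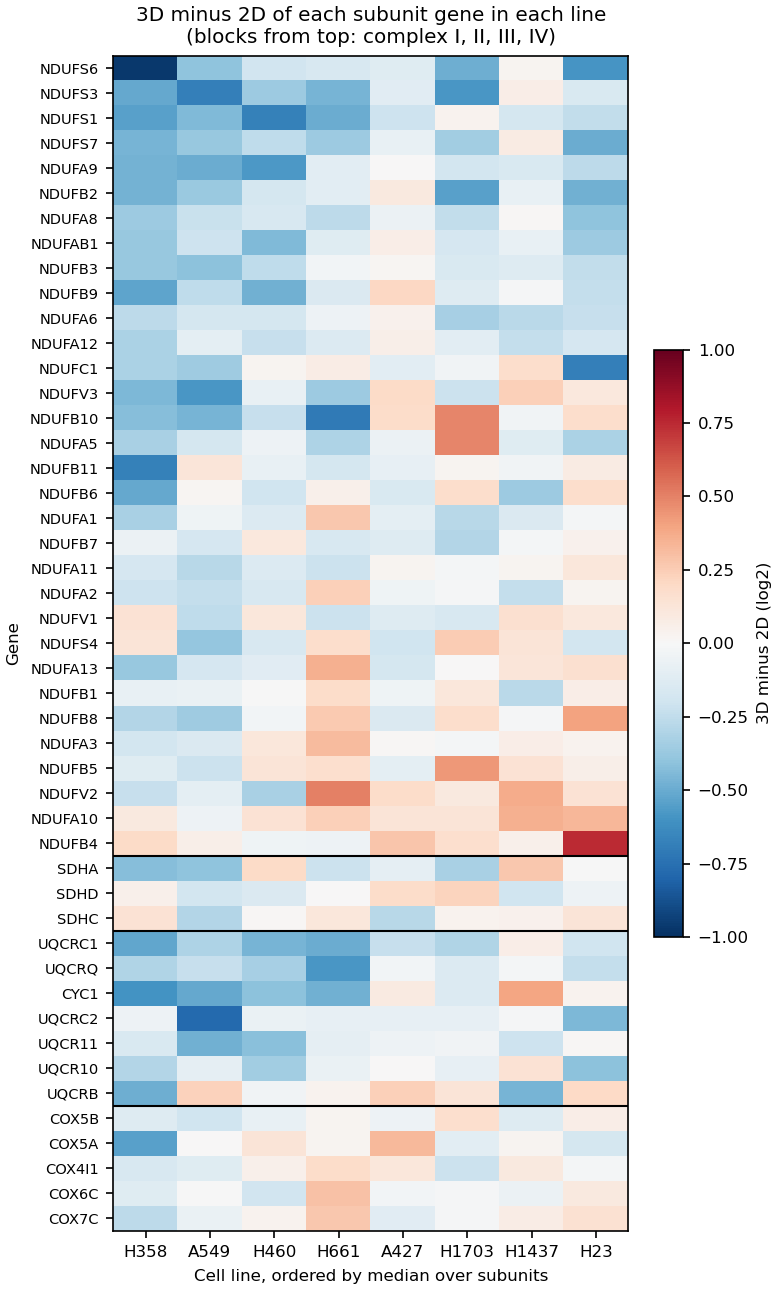
3D minus 2D (log2) of the 47 genes (rows, in blocks by complex) in the 8 lines (columns, ordered by the median over the genes); blue is lower and red higher in 3D, with the colour scale ending at -1 and 1. H358, A549 and H460 on the left are mostly blue, and COX4I1, COX6C and COX7C of the complex IV block are red in H661.

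Single genes departed from the other lines as follows. Each value is 1 pair of arrays and the mean of the gene's probe sets, which could point opposite ways. In H358, NDUFS6 at -0.96 and NDUFB11 at -0.68 were the lowest of all lines, while SDHC at 0.15 and NDUFV1 at 0.14 lay above. SDHC ran there from -0.14 on 216591_s_at to 0.80 on 238056_at, and NDUFV1 had -0.06 on 208714_at and 0.34 on 227795_at. In A549 the low ones were UQCRC2 (-0.78) and NDUFV3 (-0.58), and NDUFB11 (0.12) and UQCRB (0.23) were high. In H460 NDUFV2 (-0.32) and NDUFS1 (-0.68) were low, and NDUFB7 (0.10) and SDHA (0.19) were high. NDUFB7 had 0.41 on 211407_at but -0.20 on 202839_s_at in that line. In H661 NDUFB10 (-0.71) and UQCRQ (-0.58) were low, and NDUFV2 (0.50) and NDUFA13 (0.35) were high.

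H23 had the highest gene mean of any line, NDUFB4 at 0.75, with NDUFB8 at 0.40, while NDUFC1 at -0.68 and UQCR10 at -0.41 were low. The NDUFB4 value in H23 rested on 228940_at alone, since 218226_s_at did not differ between the cultures in that line. In H1703 NDUFB10 (0.49) and NDUFA5 (0.48) were high and NDUFS3 (-0.58) and NDUFB2 (-0.54) low. In H1437 CYC1 (0.39) and NDUFS3 (0.06) were high against the other lines and UQCRB (-0.46, mostly from 244293_at) and NDUFB6 (-0.37) low. In A427 SDHC (-0.28) and NDUFS4 (-0.20) were low against the other lines, and COX5A (0.33) and NDUFB9 (0.21) were high. NDUFB10, a membrane arm subunit, was thus lowest in H661 and highest in H1703.

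Levels differed widely between lines. Averaging the 2D and the 3D array of a line, the range over the 8 lines had a median of 1.31 (2.47-fold) over the 90 member probe sets, from 0.19 to 3.76, and over all probe sets that were not dim it was 1.60 (3.04-fold). The median size of the mean culture difference was 0.12 (1.09-fold) over members and 0.16 (1.12-fold) over all probe sets. By limma's F test over lines, 75 of 90 member probe sets (83.3%) differed at an adjusted p under 0.05, against 76.1% of all probe sets, and 43 of 47 genes had such a probe set, against 84.6% of all genes. The exceptions were NDUFA12, NDUFA13, NDUFV3 and CYC1. Ranges of 2 or more were rarer among members, at 16 of 90 (17.8%), than among all probe sets (37.0%). The error in this F test is the spread of the culture difference over lines, since each line has 1 array per culture.

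NDUFS6 had the widest range, with H1437 at 1.68 and H23 at -2.08, a 13.6-fold difference (limma F test, adjusted p = 3.88e-06). H23 was lowest and H1437 highest in both cultures. UQCRC2 came next and set H358 apart. On 200883_at H358 stood at -2.72, 6.92-fold under the median of the other lines, and the next lowest line, A427, at -0.34. On 212600_s_at H358 stood at -2.45, 5.74-fold under the others. In both cultures H358 was the lowest line on these 2 probe sets, at -2.97 in 2D and -2.48 in 3D on the first. The third probe set, 241755_at, the one called between cultures, did not show this, with H358 at 0.19 and an F test adjusted p of 0.0801.

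NDUFV2, an iron-sulfur subunit of the NADH arm, was highest in A427 at 2.58, 6.10-fold over the median of the other lines, with H1437 next at 1.32 and H460 lowest at -0.65. NDUFS1 was highest in H661 on 236356_at (2.50) and 229647_at (2.24), with H460 second at 1.84 and 1.27, and H661 was the highest line on all 5 NDUFS1 probe sets, the called one included. SDHA ran from 1.27 in H1703 to -1.44 in H23, and NDUFA9 from 1.06 in H1703 to -1.62 in H358. The SDHA probe set is of a kind (_x_at) whose probes can also match other transcripts. NDUFA10 was lowest in H661 on 217860_at (-1.51) and 227206_at (-1.65), while its probe set 1555548_at had the smallest range of all 90, 0.19. NDUFC1 was highest in A427 at 1.39 on 232146_at. COX5B was highest in H23 on all 4 of its probe sets, by 2.54-fold over the median of the other lines on 211025_x_at. On 213736_at, however, H460 was close behind at 0.605 against 0.641, and lay above H23 in 3D. The other COX5B probe sets are of the _s_at and _x_at kinds.

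**Figure D4:**
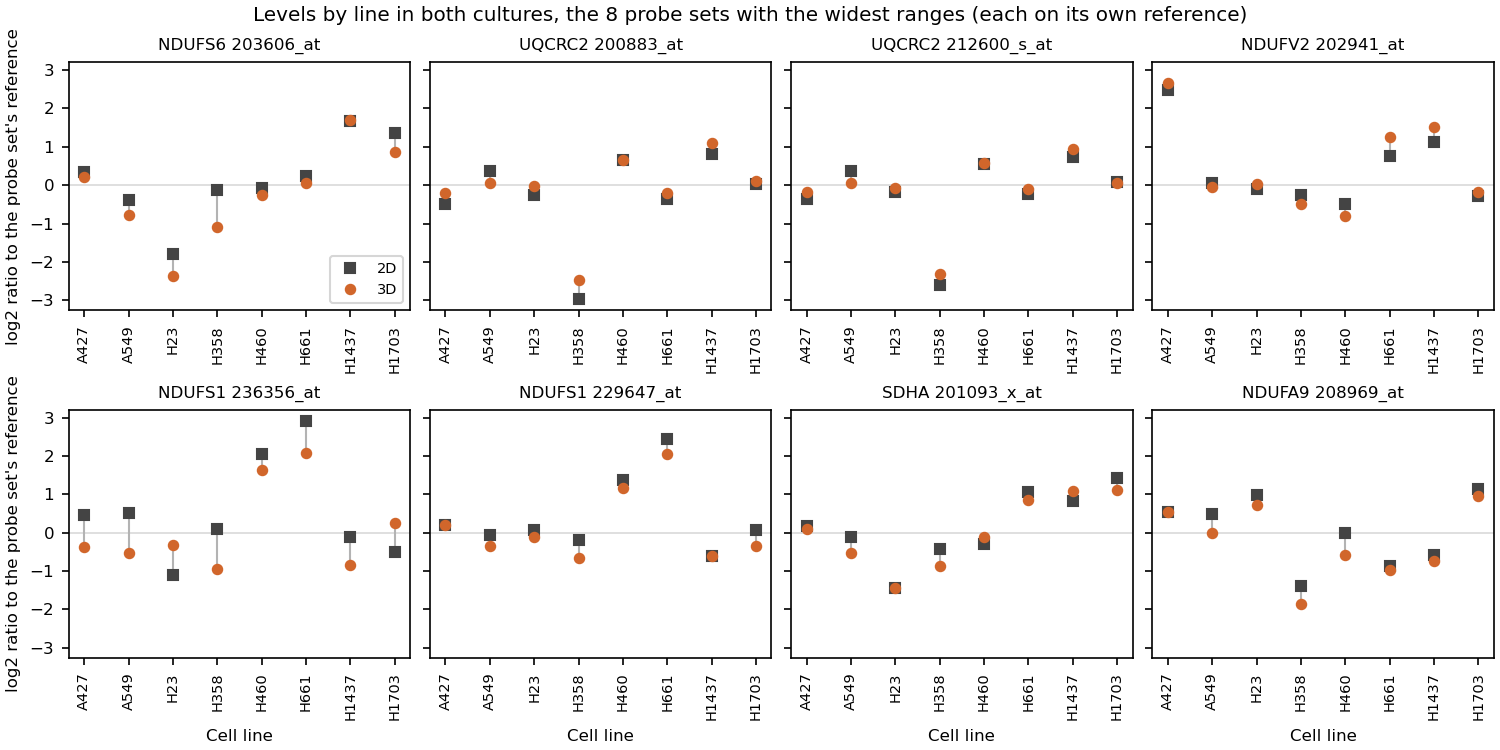
Level (log2 ratio to the probe set's own reference) in each line in 2D (squares) and 3D (circles), for the 8 member probe sets with the widest ranges between lines; all panels share the vertical axis. In either culture, H358 is lowest on both UQCRC2 probe sets and H23 on NDUFS6, A427 is highest on NDUFV2, and H661 is highest on both NDUFS1 probe sets, followed by H460.

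Genes that act around the chain were taken from 9 further lists, whose counts are to be read against the 7.79% of all genes with a probe set called lower and the 4.56% with one called higher. Among the 17 complex I assembly factors, 1 was called lower and 0 higher, with a median of -0.16. That gene was TMEM126B, which builds the membrane arm, and both of its probe sets fell, by 0.70 ± 0.46 and by 0.35 ± 0.15, in 8 of 8 lines each (limma, adjusted p = 0.0260 for both). Of 32 assembly factors of complexes II to IV, 2 were lower and 2 higher, with a median of -0.06. BCS1L, which places the iron-sulfur protein into complex III, fell by 0.52 ± 0.30, and COX15, needed to make the heme of complex IV, fell by 0.57 ± 0.36. TTC19, which acts on complex III, rose by 0.32 ± 0.09, and PET117, a complex IV factor, rose by 0.34 ± 0.13, both in 8 of 8 lines.

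Of 14 genes of mobile carriers and coenzyme Q synthesis, 1 was lower and 1 higher, with a median of -0.09. CYCS, cytochrome c, fell on 244546_at by 1.22 ± 0.98, while its other probe sets had -0.26 and 0.12. PDSS2, which makes the side chain of coenzyme Q, rose by 0.59 ± 0.38 on 1555886_at, while its probe set 219307_at had -0.06. The 17 ATP synthase genes had a median of -0.05 with 0 lower and 2 higher. ATP5F1C, of the central stalk, rose by 0.60 ± 0.50 on 214132_at, while its other 3 probe sets had -0.06 to -0.07, and DMAC2L, also known as factor B, rose on 213995_at by 0.48 ± 0.33. Its probe set 206993_at had -0.56 ± 0.55 and was lower in 7 of 8 lines (adjusted p = 0.0734).

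Of 14 regulators of mitochondrial biogenesis, 2 were lower and 0 higher. TFAM, which packs and transcribes mitochondrial DNA, fell on 2 probe sets, by 0.55 ± 0.28 in 8 of 8 lines and by 0.48 ± 0.25 in 7. NRF1, a transcription factor of many respiratory genes, fell on 1 probe set, 243189_at, by 0.52 ± 0.35. Its other probe sets ran from -0.225 on 204652_s_at to 0.08 on 211279_at and were not called. The mitochondrial ribosome list had 4 of 44 genes lower and 0 higher, where 7.79% and 4.56% of all genes were. Its median was -0.20, with 39 of 44 genes under 0, where 51.4% of all genes were. MRPL2, MRPS5, MRPS12 and MRPS34 were the called ones, with -0.50 ± 0.31 for MRPL2 on 229884_s_at. Protein import had 6 of 19 lower and 1 higher, with a median of -0.18. TOMM22 fell by 0.80 ± 0.53 on 217960_s_at and TIMM44 by 0.66 ± 0.42 on 203093_s_at, while the import receptor TOMM20 rose by 0.39 ± 0.18.

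In the citric acid cycle and pyruvate dehydrogenase list, 3 of 16 genes were lower and 1 higher, with a median of -0.09. IDH3A fell by 0.52 ± 0.25 on 202069_s_at and PDHA1 by 0.33 ± 0.20 on 1555864_s_at, and SUCLG2 rose by 0.51 ± 0.41 on 214835_s_at. SUCLG1 fell by 0.33 ± 0.17 on 217874_at, while its probe set 244638_at had 0.39 ± 0.35 and was higher in 6 of 8 lines (adjusted p = 0.0756). The 11 hypoxia-linked regulators of respiration went the other way, with 5 higher, 0 lower and a median of 0.20. PDK1, the kinase that shuts off pyruvate dehydrogenase, rose by 1.49 ± 1.13, and BNIP3L, a receptor for the removal of mitochondria, by 1.22 ± 0.41, both in 8 of 8 lines. PDK1 differed most in H661, by 3.46, and least in H460, by 0.39.

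**Figure D5:**
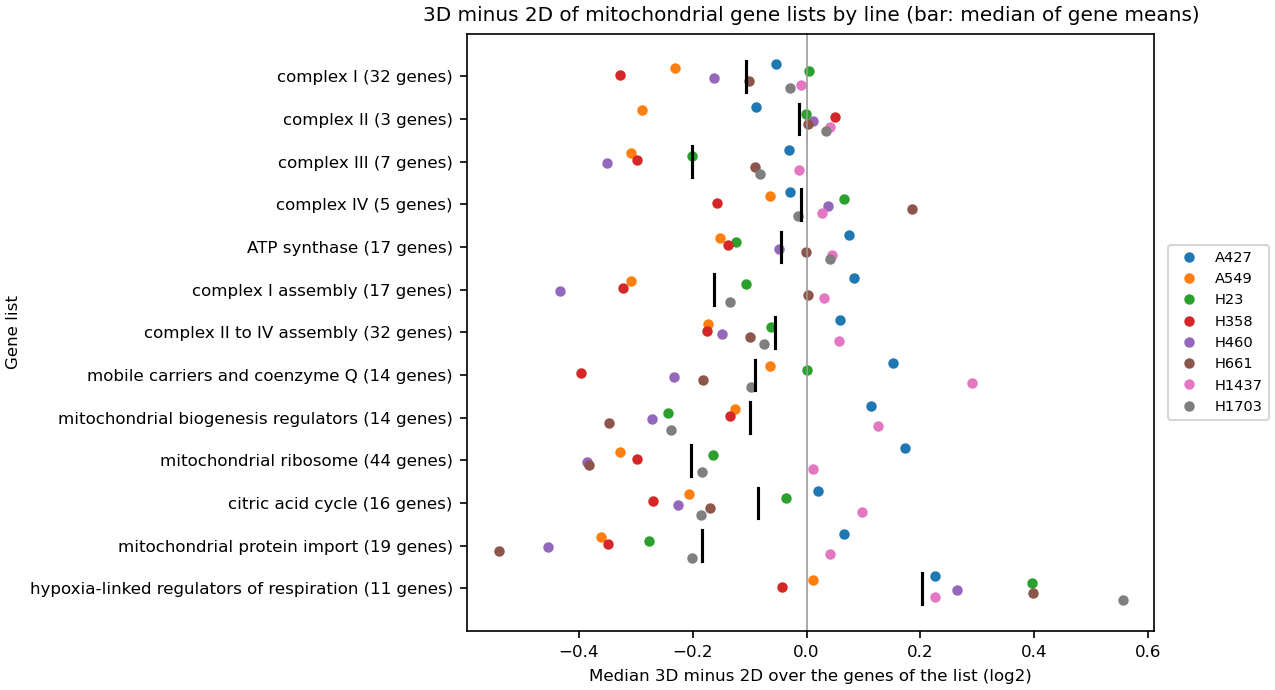
Median 3D minus 2D (log2) over the genes of each list in each of the 8 lines (points) and the median of the gene means (black bar), for the 4 complexes and 9 related lists. Mitochondrial ribosome, complex III and protein import lie lowest at -0.20, -0.20 and -0.18, and the hypoxia-linked list lies highest at 0.20.

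The 250 bases before the start of each gene were read for 2 motifs known from promoters of respiratory genes, in RefSeq's GRCh38.p14, where 45 of the 53 genes have an entry. The core of the NRF1 motif, GCGCATGC on either strand, was in 8 of 45 members (17.8%) and in 3.22% of 27305 genes. The ETS core, CCGGAAG on either strand, was in 11 of 45 (24.4%) and in 10.2% of all. Of the 3 members with both motifs, COX5B, SDHB and SDHD, 0 had matches that overlapped. The windows below belong to members with a match and were chosen for a low gene mean in 3D, with 2 exceptions. NDUFA5, with a gene mean of -0.11, was chosen for its called probe set, and COX5B for a mean near 0. Other members with a match, such as NDUFA6 at -0.18, are not shown. Each window has 16 bases on each side and the match in capitals, 5′ to 3′ on the gene's strand. NDUFS6 is at chr5:1801345-1801384 (+), NDUFS7 at chr19:1383818-1383857 (+), NDUFA5 at chr7:123557953-123557992 (-) and COX5B at chr2:97645910-97645949 (+) for the NRF1 core. For the ETS core, NDUFS1 is at chr2:206159579-206159617 (-), NDUFS3 at chr11:47578975-47579013 (+) and UQCRQ at chr5:132866572-132866610 (+).
NDUFS6: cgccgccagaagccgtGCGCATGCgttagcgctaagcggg
NDUFS7: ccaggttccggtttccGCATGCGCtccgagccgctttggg
NDUFA5: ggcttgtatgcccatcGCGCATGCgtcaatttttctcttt
COX5B: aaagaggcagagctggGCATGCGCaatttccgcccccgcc
NDUFS1: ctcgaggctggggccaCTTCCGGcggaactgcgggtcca
NDUFS3: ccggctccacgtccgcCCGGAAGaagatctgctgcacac
UQCRQ: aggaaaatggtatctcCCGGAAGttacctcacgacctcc

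Members with and without a match had like differences. The 7 measured genes with an NRF1 core match had a median of -0.11, with 6 under 0, and the 34 without one had -0.11, with 29 under 0. For the ETS core, 9 measured genes with a match had -0.10, with 9 under 0, and 32 without had -0.12, with 26 under 0. A match describes the letters of the window and shows neither binding nor a cause.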

How the data were processed

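The deposited values are log2 ratios of each probe set, made by the authors. From the values, the reference is the probe set's own median over the 16 arrays where the probe set is not dim. Per the labels' protocols, the input was 200 ng of total RNA. For the software, the probe summary, the normalisation between arrays and the genome build, the entry is "not given in the sources used here". A probe set was dim when its median lay more than 0.001 under the reference (log2), and 34727 of 54675 probe sets were not. Precision is limited by the number of arrays.

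Probe sets were named from the platform's annotation, brought up to date through the RefSeq gene table of GRCh38.p14, in which 41097 probe sets had 1 symbol, 1801 several and 11777 none. Promoter sequences are RefSeq's.

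Differences were fitted per probe set with limma 3.58.1 in R 4.3.3 (lmFit, eBayes with a variance trend), with the line as a block, over all 16 arrays, and p-values were adjusted by Benjamini-Hochberg over all 34727 probe sets at 0.05. Lines were compared by the F test of the same fit. Pairs rest on the line named in the labels, and replicate numbers follow deposition order and pair nothing. With 1 array per line and culture, p-values rest on how far the difference varies among lines. A gene's difference is the mean of its probe sets that were not dim, and a complex is described by the median over its genes, with no test. Tables were made with Python 3.11.15, pandas 2.3.3 and numpy 2.4.6. The fit was tested on simulated data.

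Genes were named by rule: every member with a called probe set or with probe sets parting by over 0.5, the 2 highest and 2 lowest of each complex, the 2 highest and 2 lowest of each line against the other lines, the 8 with the largest range between lines, and up to 3 of each further list with the smallest p. Of the further lists, not every gene given by this rule is described, and TIMM10, MXI1 and FAM162A are among those left out. Other called genes of these lists, such as PDK1 and TOMM22, were chosen after their values were seen. So were members near the threshold or described by role, and the promoter windows. The members and lists were chosen with earlier results of these data known. Alternatives changed the filter, the unit of the fit, the scaling, the variance prior, the block, the 18S covariate and the lines included.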

Additional observations from a re-analysis of the deposited data

Results flagged for a closer look

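Values of 1 line far from the other 7 were looked for in 37 sets of culture differences and 8 sets of levels over the lines, and 5 of these 45 sets held one. Chance flags about 1 in 20 groups taken without regard to their values, a rate that does not hold here, since many of these genes were named for a line that departed from the others or for a wide range between lines. On the level of UQCRC2 200883_at, H358 stood at -2.72, far under the other lines. NDUFB4 differed by 0.75 in H23, and the other lines lay much lower. This mean rested on 228940_at alone, since 218226_s_at did not differ between the cultures in H23. NDUFA5 differed by 0.48 in H1703 while each of the other lines was under 0. NDUFB11 differed by -0.68 in H358. The complex II median was -0.29 in A549. Each is 1 pair of arrays or a mean of 1 pair, without a repeat.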

How the results depend on the processing

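The count of members called lower in 3D (3 genes) rested on the settings. It was 1 with no filter on dim probe sets (NDUFS1), 1 with probe sets averaged per gene (UQCRC1), 6 with arrays centred on their medians (NDUFB2, NDUFS3 and UQCRC1 added), 0 with no block for the line and 0 with the 18S level as a covariate. Leaving out 1 line at a time gave 0 to 6 genes, with 0 without H358, 1 (NDUFS1) without A549 and without H23, and 6 without H1437 (NDUFS3, NDUFS7 and UQCRC1 added). Among all probe sets, the lower calls went from 1542 to 317 without H358, to 389 without H460, to 465 without H1703, to 471 without H23, to 657 without H661, to 699 without A549, to 696 with no filter, to 778 without _s_at and _x_at probe sets, to 7 with no block and to 0 with the 18S covariate. NDUFS1 on 235321_at passed in 13 of 17 alternatives, with adjusted p from 0.0183 to 0.984. UQCRC2 on 241755_at passed in 11 of 18 (0.0273 to 0.667), and NDUFA5 on 215850_s_at in 6 of 17 (0.0394 to 1.0). All kept a mean under 0 in these alternatives. The complex medians ranged from -0.14 to -0.03 for complex I, from -0.12 to 0.01 for complex II, from -0.23 to -0.15 for complex III and from -0.04 to 0.01 for complex IV. The count of genes differing between lines was 32 to 44, the lowest without _s_at and _x_at probe sets, where fewer genes were measured. No member was called higher in any alternative. The causes of these shifts were not tested beyond the smaller number of lines or probe sets in some fits. With 1 array per line and culture, a difference in a single line has no error of its own.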

Other observations

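Within a gene, some probe sets ordered the lines alike and some did not. H661 was highest on all 5 probe sets of NDUFS1, with 1.47 on 203039_s_at, 0.91 on the called 235321_at and 0.67 on 239268_at, beside the wider ranges given above. SDHC was highest in H23 on 6 of its 7 probe sets, with 1.27 on 232107_at, and highest in H460 on 238056_at. The extremes between lines on UQCRC2 (H358) and NDUFA10 (H661) each appeared on 2 of the gene's 3 probe sets that were not dim, and not on the third.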
